A study of Oryza sativa with 80 samples.

Results

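The 200 loci described here came just below the most strongly heat-induced genes of the mature leaf 3 of rice (Oryza sativa) seedlings. They were chosen by their heat values: counts of the 5 sequenced segments were summed per leaf pool and expressed as CPM (each count scaled to the same total per pool), and the log2 ratio of the mean at 40 °C to the mean at 30 °C, with 0.5 CPM added to both, was taken in each soil water and each batch. Among the 15082 of 42189 genes with a mean of at least 2 CPM over the 40 °C pools, the members are the 200 that followed the first 100, down to rank 300, by the smallest of these 4 values. Seedlings were grown with 12 h days at 30 °C and nights at 25 °C, in soil holding 3 g of water for each g of dry soil (well-watered, leaves taken at 10 days) or 1.5 g (a drought that limits growth, leaves taken at 12 days). Leaves were collected at midday, some without heat and others once the plants had been held at 40 °C for 30 min. The 4 treatments, W30, W40, D30 and D40, are named by a letter for the soil water and a number for the temperature. They had 4 leaf pools each, every pool holding matched segments of 3 leaves. Of the 7 segments cut, only segments 2 to 6 were sequenced. Base here means segment 2 and tip means segment 6, the outermost segments sequenced. Poly(A) RNA was sequenced from 80 libraries, and the 16 pools are the unit of replication. The labels name no cultivar and no genetic change, and they put 7 pools in batch 1 and 9 in batch 2. W40 had only replicate 1 in batch 1, and every other treatment had replicates 1 and 2 there. Leaf age differed along with soil water, so the effects of drought and of age cannot be told apart.

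Heat unfolds proteins, and plant cells answer within minutes: heat stress transcription factors bind promoters of chaperone genes, and the chaperones made hold, refold or disaggregate damaged proteins in the cytosol, plastids and mitochondria. A separate branch, the unfolded protein response of the endoplasmic reticulum (ER), answers misfolding inside the secretory pathway and raises ER-resident chaperones and folding enzymes. The deposited tables pair no ID with a name, and a search of RefSeq's gene table matched 0 IDs. A locus is therefore described only by the list it was entered under from general knowledge, which no table here checks, and most members are on no list. No sequence is printed for any member, because none could be matched to a sequence source.

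Pool totals ran from 310494791 to 513401279 counts. Loci entered as markers of leaf photosynthesis lay between 446 and 35742 CPM over the pools, and the shoot meristem marker had 0 counts in all 16 pools. In bulk tissue, fewer cells of a type and less RNA per cell cannot be told apart.

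The members were the middle range of the heat response rather than a chaperone-free group. Their median log2 heat values were 1.58 in batch 1 and 2.63 in batch 2 of well-watered leaves and 1.54 in batch 1 and 2.29 in batch 2 under drought, where the 15082 genes over the minimum had medians of -0.12, -0.15, -0.02 and -0.41. These values chose the members and are given as a description, with no test. At the upper edge the smallest value was 1.93 for LOC_Os03g52340 at rank 100, just outside, and 1.92 for LOC_Os08g36150, the first member. At the lower edge it was 1.05 for LOC_Os03g26870 at rank 300 and 1.04 for LOC_Os08g42000, the next gene. LOC_Os08g36150 stood at 31.7, 31.6, 28.1 and 27.9 CPM in the W30 pools and 122, 313, 380.2 and 439 CPM in the W40 pools, and at 25.3, 25.7, 29.4 and 31.4 CPM in D30 and 107, 136, 495 and 563 CPM in D40 (values are given from replicate 1 to replicate 4 throughout). LOC_Os03g26870 stood at 5.51, 7.75, 11.2 and 13 CPM in W30, 32.7, 42.5, 41.4 and 45.6 CPM in W40, 8.89, 9.11, 15.6 and 16.2 CPM in D30 and 20.1, 18.2, 99.9 and 52.4 CPM in D40. For both loci every pool at 40 °C lay above every pool at 30 °C of the same soil water. That held for 192 members in well-watered leaves, against 11.5% of the genes over the minimum, and for 157 members under drought, against 8.25%. The rule used this contrast, so the counts only describe the members.

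Together the members took up 0.44% ± 0.088 of the counts in W30 (SD, n = 4) and 2.81% ± 1.10 in W40, and 0.53% ± 0.18 in D30 and 2.49% ± 1.63 in D40. Their summed level was 3269, 4183, 5203 and 5007 CPM in the W30 pools and 12042, 29989, 34883 and 35612 CPM in the W40 pools. Under drought it was 3818, 3779, 6683 and 7048 CPM in D30 and 10049, 11648, 39675 and 38233 CPM in D40. All 40 °C pools lay above all 30 °C pools, and the pools of batch 1 were the lowest at 40 °C in both soil waters. The 100 genes ranked above took up less at 30 °C and more at 40 °C: 0.19% in W30, 7.40% in W40, 0.289% in D30 and 8.86% in D40. Per locus, the members had a median of 8.80 CPM at 30 °C and 47.6 CPM at 40 °C, and 24 of them (12%) lay under 1 CPM at 30 °C. The 100 genes above them had medians of 8.02 and 338 CPM.

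**Figure D1:**
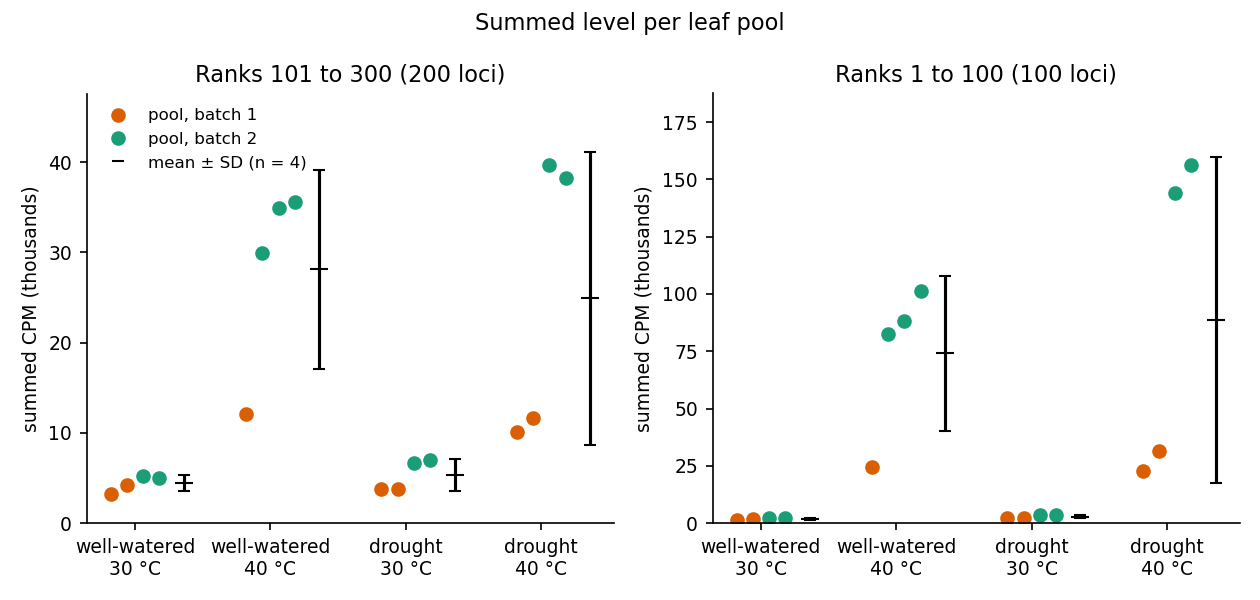
Summed CPM of the 200 members (left) and of the 100 genes ranked above them (right) in each leaf pool of the 4 treatments, coloured by batch, with the mean ± SD of 4 pools in black. The W40 pool of batch 1 sits at 12042 CPM for the members, below the other W40 pools at 29989 to 35612 CPM, and the D40 pools separate by batch in the same way.

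The heat values that chose the members differed between the batches, which is a description with no test. In well-watered leaves 173 of the 200 members had a higher value in batch 2 than in batch 1, and under drought 172 did, where 49.4% and 25.8% of the genes over the minimum did so. The median difference between the batches was 0.98 in well-watered leaves and 0.77 under drought (log2). It was -0.01 and -0.38 over all genes above the minimum. The heat values use plain pool totals, with no further scaling. TMM, the scaling used in the tests, gave the batch 2 pools factors of 1.04 and 1.15 in D30 and 0.81 and 0.77 in D40. In batch 1 they were 1.13 and 1.12 in D30 and 1.02 and 1.10 in D40. How far scaling moved the medians and shares of all genes was not tested. In 66 members (33%) batch 2 was higher by at least 1 in both soil waters, against 60% of ranks 1 to 100, 19.5% of the 200 genes ranked next below and 2.87% of the genes over the minimum. In 28 members the batches lay within 0.5 of each other in both soil waters, and in 5 members batch 2 was lower in both. The smallest of the 4 values, which set the rank, came from batch 1 under drought in 93 members and from batch 1 of well-watered leaves in 86. It came from batch 2 in 16 members under drought and in 5 of well-watered leaves. The batch 1 value of well-watered leaves rests on 1 heated pool.

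**Figure D2:**
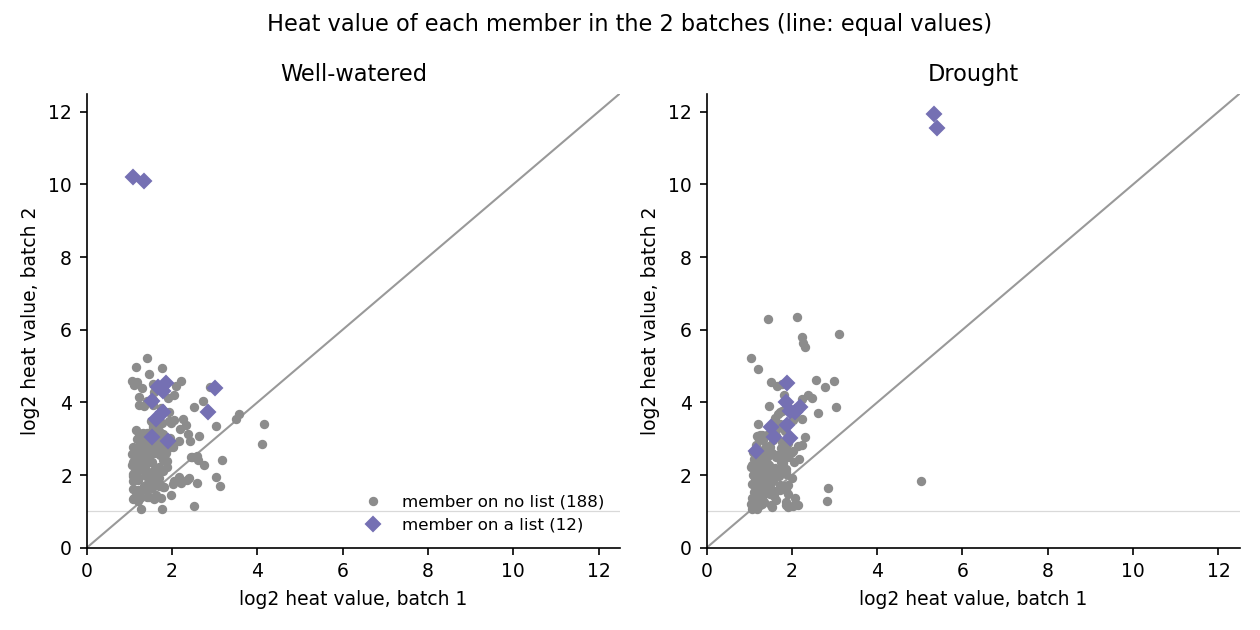
Log2 heat value of each member in batch 1 (horizontal axis) and batch 2 (vertical axis), in well-watered leaves (left) and under drought (right); diamonds are the 12 members on a list and the line marks equal values. Most members lie above the line, and the pair of small heat shock protein loci sits farthest from it, at batch 2 values of 10.1 and 10.2 in well-watered leaves.

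Of the 157 listed loci, 12 were members, 39 were in ranks 1 to 100 and 13 among the 200 genes ranked next below. The label of the members as lying beyond the top chaperones holds only in part: 7 of the 12 were entered as chaperones, namely 2 HSP90, 2 HSP70, 2 small heat shock protein loci and 1 chaperonin. The HSP90 and HSP70 lists were not divided by cell compartment, so ER-resident chaperones may be among their loci. The list that the members held more of than the top 100 did was that of the ER unfolded protein response, with 4 of its 7 loci among the members, 0 in ranks 1 to 100 and the other 3 beyond the 200 genes ranked next below. Small heat shock proteins had 12 of 19 loci in ranks 1 to 100 and 2 among the members, and the list of cochaperones and heat memory factors had 6 of 8 and 0. None of the 13 clock loci, the 13 loci of abscisic acid synthesis, breakdown and PP2C phosphatases, or the 9 DREB and stress NAC transcription factors was a member. Of the 9, 4 lay under the CPM minimum, as did 1 of the abscisic acid list, and could not be members. The members are only 200 of the 15082 genes over the minimum. Lists this short would be expected to hold few or none, so the absence is not a result.

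Heat stress transcription factors had 1 member, LOC_Os04g48030 at rank 105, and 5 of the 25 listed loci ranked in the top 100. LOC_Os04g48030 stood at 0.505, 0.602, 1.21 and 0.973 CPM in W30 and 7.99, 25.1, 29.8 and 43.3 CPM in W40. It stood at 1.95, 1.75, 4.32 and 3.73 CPM in D30 and 7.17, 9.20, 89.2 and 119 CPM in D40. The D30 pools all lay above the W30 pools, and the heat values were 3.01 and 4.39 in well-watered leaves of batch 1 and batch 2 and 1.89 and 4.53 under drought. The drought difference at 30 °C was 1.79 (standard error 0.49, adjusted p = 0.0348 by edgeR). At 40 °C it was 1.18 (standard error 0.47, adjusted p = 0.108 by edgeR), which did not pass. It was 1.74 in batch 1 and 1.80 in batch 2 at 30 °C, and with 1 pool left out it passed in 11 of 16 fits, being lost without W30 replicate 3 or 4 or D30 replicate 1, 2 or 3, with adjusted p from 0.0160 to 0.118.

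HSP90 chaperones help other proteins complete their folding. LOC_Os06g50300 (rank 117) stood at 69.6, 139, 114 and 109 CPM in W30 and 365, 1754, 2527 and 2411 CPM in W40, and at 74.8, 75.5, 96.2 and 108 CPM in D30 and 250.2, 338, 1451 and 1312 CPM in D40. The other HSP90 member, LOC_Os09g30418 (rank 107), had fewer counts, at 2.01, 3.05, 3.33 and 5.79 CPM in W30 and 21.4, 52.2, 59.7 and 90.8 CPM in W40, and at 3.45, 4.19, 3.03 and 5.78 CPM in D30 and 12.3, 18.3, 75.6 and 80.3 CPM in D40. In both loci the heated pools of batch 1 were below those of batch 2, and no heated pool overlapped with those at 30 °C of the same soil water. Per kilobase of the length implied by the authors' FPKM, the mean W40 level was 299 CPM for LOC_Os06g50300 and 10.8 CPM for LOC_Os09g30418.

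HSP70 chaperones bind exposed stretches of unfolded proteins. LOC_Os02g02410 (rank 133), which had the higher counts of the pair, stood at 46.8, 129, 112 and 108 CPM in W30 and 279.7, 1902, 2682 and 2571 CPM in W40, and at 48.6, 46.8, 88.0 and 116 CPM in D30 and 159, 246, 1431 and 1320.0 CPM in D40. LOC_Os09g31486 (rank 156) stood at 6.90, 13.8, 9.46 and 9.72 CPM in W30, 30.6, 62.5, 89.0 and 99.5 CPM in W40, 7.23, 7.67, 9.74 and 14.6 CPM in D30 and 18, 42.9, 106 and 97.5 CPM in D40. Heated and unheated pools did not overlap within a soil water for either locus, and per kilobase of implied length their mean W40 levels were 493 and 23.2 CPM. The mean level of LOC_Os02g02410 was 1859 ± 1108 CPM (SD, n = 4) in W40 and 789 ± 679.8 CPM (SD, n = 4) in D40, and the drought difference at 40 °C of -0.90 (standard error 0.50, adjusted p = 0.239 by edgeR) did not pass. Chaperonins, which fold proteins inside a closed chamber, had 1 member, LOC_Os05g46290 (rank 257), at 3.37, 2.42, 3.44 and 3.64 CPM in W30, 12.2, 27.0, 32.2 and 32.2 CPM in W40, 4.88, 5.08, 5.83 and 8.97 CPM in D30 and 8.18, 15.5, 48.5 and 51.1 CPM in D40. In that locus D40 replicate 1 lay below 1 of the D30 pools, so the groups overlapped under drought.

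The 4 members entered under the ER unfolded protein response ranked between 111 and 158. LOC_Os04g32950 (rank 157) had the most counts, at 82.4, 194, 138 and 139.8 CPM in W30 and 398, 1912, 2492 and 2449.6 CPM in W40, and at 86.9, 85.5, 129 and 163 CPM in D30 and 269, 375, 1631 and 1441 CPM in D40. LOC_Os07g14270 (rank 144) followed, at 58.2, 125, 107 and 113 CPM in W30 and 285, 1121, 1404 and 1369 CPM in W40, and at 59.1, 59.0, 89.3 and 118 CPM in D30 and 144, 211, 913 and 821 CPM in D40. In both loci the W40 pools of batch 2 lay above all D40 pools. LOC_Os09g27830 (rank 111) showed the same order of the groups, at 15.8, 32.6, 20.5 and 20.7 CPM in W30, 88.5, 391, 559.7 and 510.2 CPM in W40, 13, 11.3, 15.2 and 17.3 CPM in D30 and 49.2, 65.3, 255 and 234 CPM in D40. LOC_Os07g44950 (rank 158) did not, with its highest values in D40: 7.11, 8.29, 6.80 and 7.35 CPM in W30, 27.8, 85.3, 93.2 and 123 CPM in W40, 10.7, 9.47, 14.1 and 16 CPM in D30 and 27.6, 32.2, 159 and 152 CPM in D40. Per kilobase of implied length the mean W40 levels were 543, 251, 80.7 and 25.1 CPM for these 4 loci in that order. The drought differences at 40 °C were -0.67, -0.73, -1.09 and 0.38 (log2) in the same order, and none passed (edgeR adjusted p = 0.333, 0.234, 0.132 and 0.575).

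The pair of small heat shock protein loci, which code for chaperones that hold unfolding proteins until others refold them, had their smallest heat value in batch 1 of well-watered leaves, which holds 1 heated pool and 2 unheated ones. LOC_Os04g36750 (rank 202) stood at 0.0404, 0.280, 0.116 and 0.0473 CPM in W30 and at 1.17, 466, 771 and 676 CPM in W40. It stood at 0.0175, 0.00565, 0.158 and 0.237 CPM in D30 and 4.62, 37.9, 1624 and 2522 CPM in D40. LOC_Os03g14180 (rank 282) stood at 0.00577, 0.893, 0.0519 and 0.00430 CPM in W30 and 1.52, 437, 891 and 553 CPM in W40, and at 0.00874, 0.0113, 0.0180 and 0.0548 CPM in D30 and 3.71, 36.2, 1835 and 2388 CPM in D40. At 30 °C both lay under 1 CPM in every pool, and the highest value was that of LOC_Os03g14180 in W30 replicate 2. The heated well-watered pool of batch 1 was the lowest heated pool, and every heated pool of batch 2 lay above every heated pool of batch 1. Their heat values were 1.34 and 1.09 in batch 1 of well-watered leaves but 10.10 and 10.21 in batch 2, and 5.41 and 5.33 in batch 1 and 11.54 and 11.94 in batch 2 under drought. Ranked by the mean of the 4 values they would have been 12 and 11. With 0.1 CPM added in place of 0.5 their ranks were 94 and 185, and with 1 CPM added 331 and 373. Without W30 replicate 1 they were 268 and 629, and without W30 replicate 2 they were 151 and 102. Per kilobase of implied length, the mean of LOC_Os04g36750 over the D40 pools was 1374 CPM, above the 209 CPM of LOC_Os02g02410 on the same scale, and its D40 pools spanned a wide range.

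**Figure D3:**
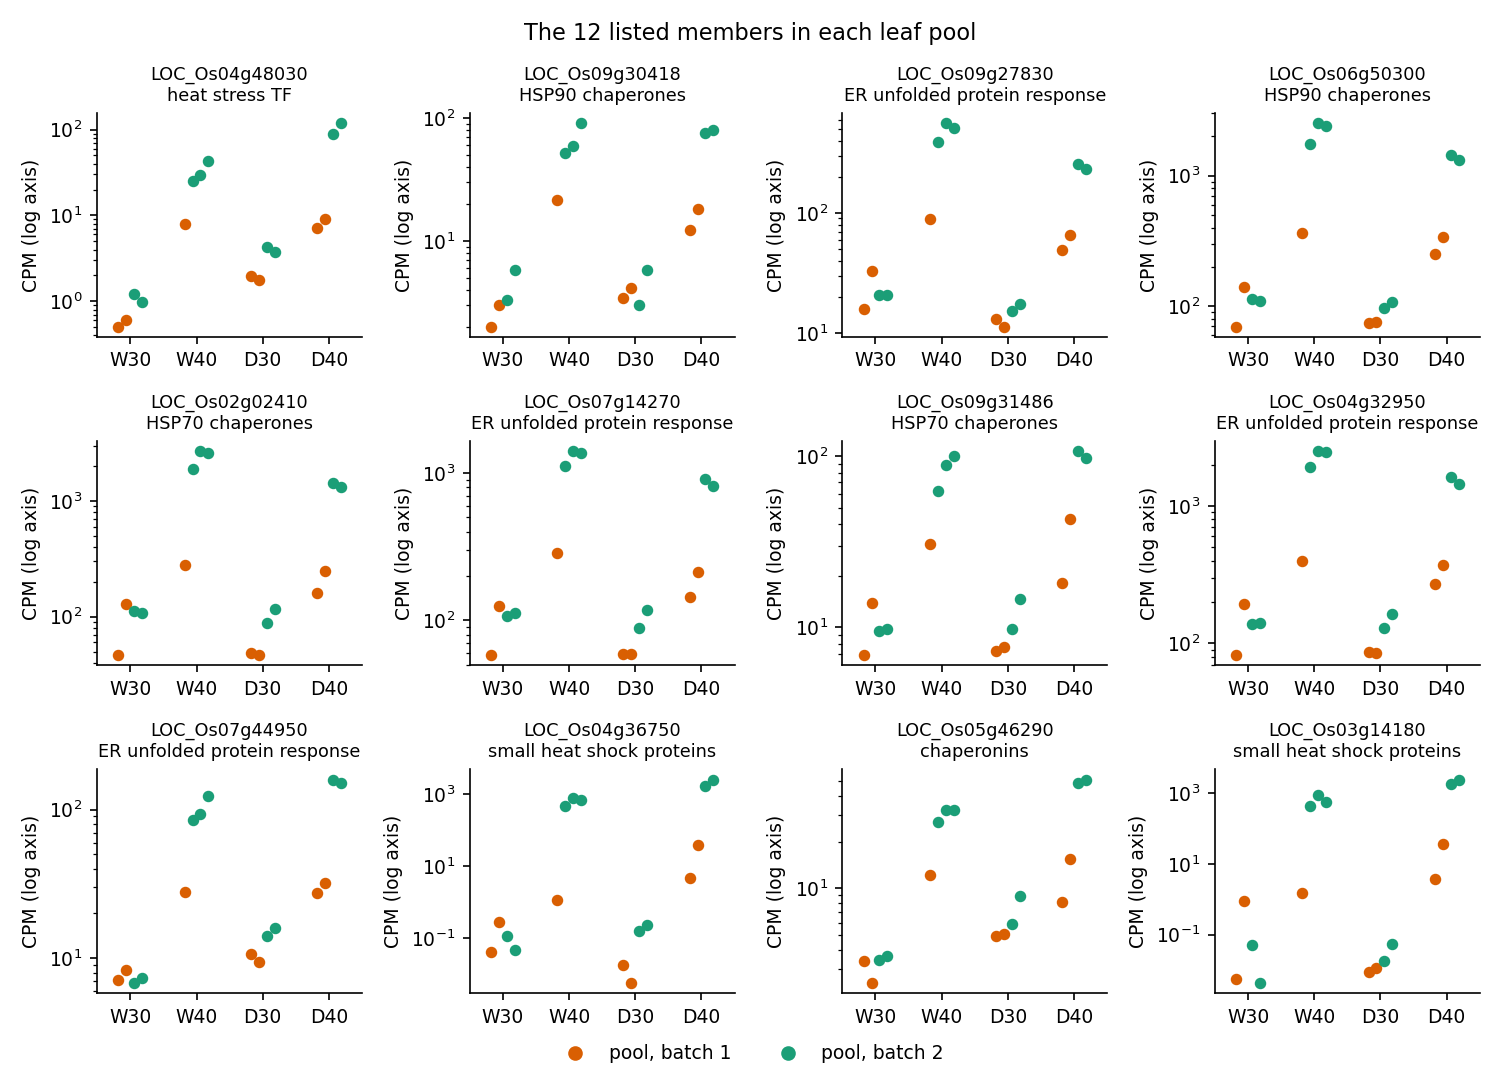
CPM (log axis) of the 12 members on a list in each leaf pool of the 4 treatments, in order of rank and coloured by batch. In the pair of small heat shock protein loci the W40 pool of batch 1 stands at 1.17 and 1.52 CPM while the others stand at 437 to 891 CPM.

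The member with the highest mean CPM at 40 °C was on no list. LOC_Os03g50870 (rank 254) stood at 68.4, 105, 181 and 190.2 CPM in W30 and 454, 1582, 1626 and 1699 CPM in W40, and at 208, 204, 602 and 720.1 CPM in D30 and 411, 518, 2487 and 2191 CPM in D40. LOC_Os10g28360 (rank 285) was also among the 5 with the highest CPM, at 189, 168, 341 and 338 CPM in W30, 380.4, 1272, 1116 and 1224 CPM in W40, 164, 160.3, 416 and 384 CPM in D30 and 378, 409.8, 1262 and 1134 CPM in D40. Per kilobase of implied length, LOC_Os03g50870 had a mean level of 54.8 CPM in W30 and 174 CPM in D30, and LOC_Os10g28360 had 105 and 114 CPM.

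At 30 °C, 19 members rose and 3 fell in drought leaves (edgeR's quasi-likelihood test with Benjamini-Hochberg adjustment over all 25103 genes tested, adjusted p under 0.05), where 5.27% of all genes tested were higher and 5.01% lower. The drought comparisons and those along the blade are not the contrast that chose the members, although they use the same pools. As shares of the 200 members these are 9.5% and 1.5%, the median over the members was 0.22 (log2) against 0.00 over all genes, and 139 of the 200 lay above 0. In ranks 1 to 100 the counts were 24 and 0, and in the 200 genes ranked next below they were 14 and 7. The members that rose spanned 0.32 to 5.51 (log2), with a median of 1.85. The smallest adjusted p belonged to LOC_Os03g50870, whose D30 pools (given above) all exceeded its W30 pools. Its difference was 1.47 (standard error 0.25, adjusted p = 0.00248 by edgeR), or 1.25 in batch 1 and 1.73 in batch 2. LOC_Os01g08780 rose from 0.367, 0.454, 0.684 and 0.749 CPM in W30 to 1.08, 1.01, 3.84 and 3.44 CPM in D30, by 1.77 (standard error 0.30, adjusted p = 0.00279 by edgeR). LOC_Os04g05010 fell most clearly, from 68.6, 64.4, 87.1 and 76.2 CPM in W30 to 12.1, 10.1, 37.6 and 47.2 CPM in D30. The difference was -1.98 (standard error 0.42, adjusted p = 0.010 by edgeR), or -2.58 in batch 1 and -1.05 in batch 2. LOC_Os11g43520 also fell, from 4.41, 11.6, 9.99 and 8.02 CPM to 4.24, 5.95, 2.14 and 2.58 CPM, a difference of -1.28 (standard error 0.32, adjusted p = 0.0209 by edgeR), although 1 D30 pool lay above 1 W30 pool. It was -0.64 in batch 1 and -2.03 in batch 2, did not pass in batch 1 alone (adjusted p = 0.415), and passed in 11 of the 16 fits that left out 1 pool, being lost without W30 replicate 2, 3 or 4 or D30 replicate 3 or 4. Of the 12 listed members only LOC_Os04g48030, the heat stress transcription factor, passed.

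The number of calls depended on the pools used. In batch 1 alone 13 members were higher and 6 lower, with 6.83% of all genes called in either direction, and in batch 2 alone 93 were higher and 21 lower, with 33.2% of all genes called. Without W30 replicate 3, and likewise without W30 replicate 4, 6 members were higher and 1 lower, where 5.32% and 4.601% of all genes were called, so 7 of 200 members lay under the background. Without D30 replicate 1, 2 or 3 the counts were 10 and 2, 11 and 3, and 11 and 2, where 6.57%, 6.67% and 6.73% of all genes were called. DESeq2 called 27 higher and 9 lower, where 16.9% of all genes were called, so the 36 of 200 members lay near the background. With replicate number as a block in place of batch, 5 were higher and 0 lower, where 4.24% of all genes were called, so the members lay under the background. Same-numbered W30 and D30 pools correlated at 0.54 to 0.70 in their deviations from the treatment means, and at -0.044 and -0.020 once batch means were removed as well.

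After heat shock, 12 members rose and 4 fell in drought leaves, against 8.37% and 5.76% of all genes tested. As 6% and 2% of the members, both shares lay under the background. Of the 12, 6 also rose at 30 °C, which is 50% of the 12 and 31.6% of the 19. None of those that fell was shared. The sharing among all genes called was not computed, so these shares have no background beside them. LOC_Os02g55134 rose from 10.6, 17.4, 18 and 17.9 CPM in W40 to 12.0, 15.2, 44.9 and 48.3 CPM in D40, by 1.06 (standard error 0.23, adjusted p = 0.0109 by edgeR). The difference was 0.25 in batch 1 and 1.53 in batch 2. LOC_Os01g08780 rose here too, from 1.49, 6.00, 6.52 and 8.39 CPM to 2.62, 5.98, 19.4 and 13.6 CPM, by 1.28 (standard error 0.29, adjusted p = 0.0141 by edgeR). LOC_Os03g08250 fell from 16.2, 36.7, 44.8 and 43.4 CPM in W40 to 10.8, 14.9, 11.4 and 16.8 CPM in D40, a difference of -1.22 (standard error 0.27, adjusted p = 0.0112 by edgeR). LOC_Os01g47610 fell from 5.20, 10.6, 11.9 and 12.6 CPM to 4.89, 4.61, 7.24 and 7.38 CPM, a difference of -0.44 (standard error 0.12, adjusted p = 0.0266 by edgeR). It was -0.23 in batch 1 and -0.53 in batch 2 and passed in 11 of the 16 fits that left out 1 pool (adjusted p up to 0.0924), being lost without W40 replicate 2, 3 or 4 or D40 replicate 3 or 4. Of these 4 loci none passed in batch 1 alone, and the call of LOC_Os01g08780 was lost without D40 replicate 3 (adjusted p = 0.0604). Within each batch the D40 pools of LOC_Os02g55134 lay above the W40 pools and those of LOC_Os03g08250 and LOC_Os01g47610 below them, while over both batches the groups overlapped for all 4 loci. None of the 12 listed members passed, and 2 had an unadjusted p under 0.05.

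In batch 1 alone, where W40 had 1 pool and was assumed to vary like the other groups, 0 members passed in edgeR, with 0.00395% of all genes called and 48 members at an unadjusted p under 0.05. In batch 2 alone 102 were higher and 28 lower, with 48.1% of all genes called. DESeq2 on all pools called 19 higher and 13 lower, where 22.3% of all genes were called. Leaving out W40 replicate 3, W40 replicate 4 or D40 replicate 4 left 2 higher and 1 lower, where 5.83%, 5.38% and 4.62% of all genes were called. Leaving out D40 replicate 3 left 1 higher and 4 lower, with 6.11% of all genes called, and leaving out W40 replicate 2 left 6 and 2, with 8.398%. Without W40 replicate 1 the counts were 16 and 13, with 23.8% of all genes called, and without D40 replicate 1 they were 22 and 5, with 17.6%.

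Whether drought changed the heat response itself was tested by the interaction of soil water and temperature. The interaction is a difference between heat responses, and the rule chose the members by their heat values. The rule did not set the sign of that difference, but it did limit the values. None of the 200 members passed in edgeR in either direction, and 0 of the 25103 genes did (background 0% higher and 0% lower). At an unadjusted p under 0.05 were 14 members and 2841 of all genes. The fit took batch as 1 shift shared by all treatments. The members' heat values, however, differed between the batches by medians of 0.98 in well-watered leaves and 0.77 under drought (log2). W40 also had fewer pools in batch 1 than D40. How far this moved the interaction was not tested, so 0 calls do not show an unchanged heat response. DESeq2 called 3 members, all lower under drought, where it called 1.88% of all genes. The members' median was -0.13 (log2) against 0.01 over all genes, and 82 of the 200 lay above 0, which is only a description of genes chosen by heat. Without W40 replicate 1, 2 members passed, both lower, with 3.01% of all genes called. In batch 1 alone 2 members passed, both lower, with 0.486% of all genes called. In batch 2 alone 21 were higher and 26 lower, with 16.8% of all genes called. The widest values belonged to the loci near 0 in unheated leaves, with 8.22 for LOC_Os03g14180 at a standard error of 3.46 (edgeR adjusted p = 0.390). LOC_Os04g05010, lower under drought at 30 °C and not at 40 °C (-0.15, adjusted p = 0.835), had an interaction of 1.83 (standard error 0.58, adjusted p = 0.266 by edgeR), so its drought difference was not shown to differ between the temperatures.

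**Figure D4:**
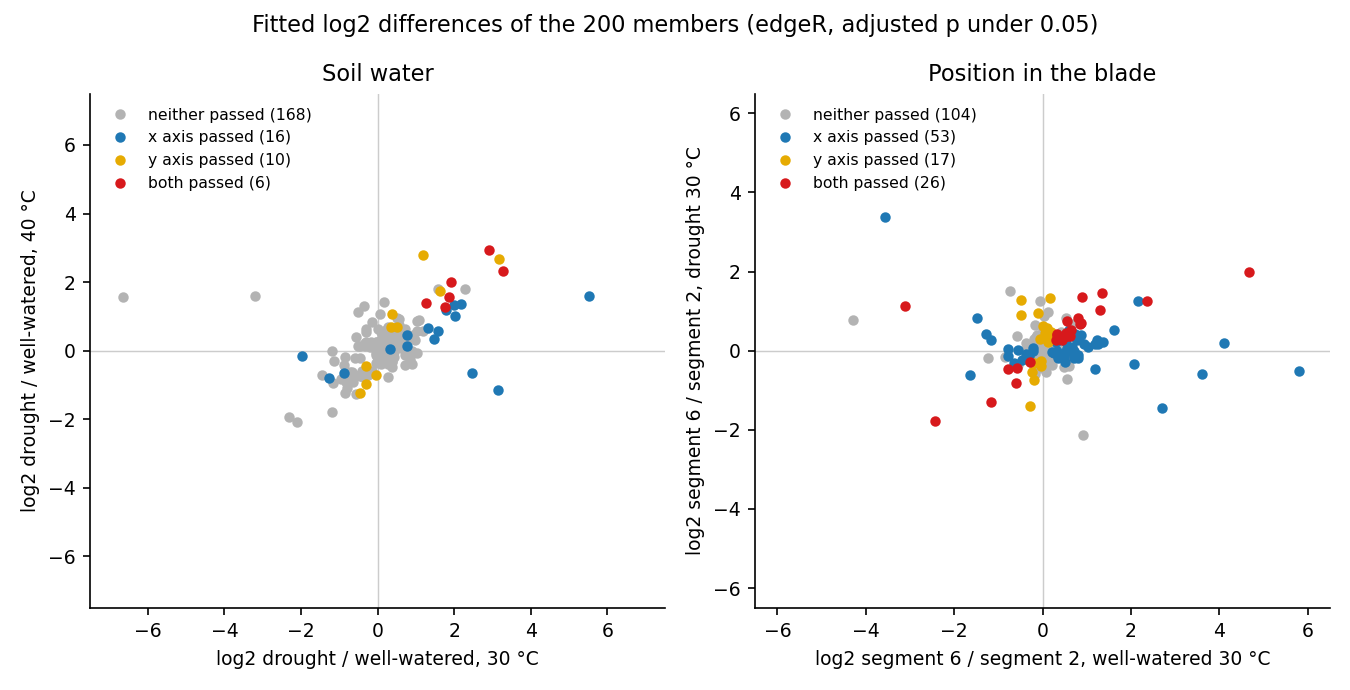
Fitted log2 differences of the 200 members: drought against well-watered at 30 °C and 40 °C (left), and segment 6 against segment 2 in well-watered and drought leaves at 30 °C (right), coloured by which axis passed an adjusted p under 0.05. On the left 6 members passed on both axes, all of them higher, and on the right 26 passed on both, 1 of them with opposite signs.

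Along the unheated blade many members had a gradient. In well-watered leaves at 30 °C, 58 members were higher at the tip (segment 6) than at the base (segment 2) and 21 lower, where 17.1% of the 23888 genes tested were higher and 14.1% lower (edgeR, leaf pool as block). In this fit the 29% of members that were higher lay above that background and the 10.5% that were lower lay under it. Without leaf pool as block, the share of members that passed lay under that of all genes. In ranks 1 to 100 the counts were 18 and 9, and in the 200 genes ranked next below they were 49 and 34. Of those 200 genes 41.5% passed in either direction, against 39.5% of the members. No test compared these shares. In drought leaves 31 were higher and 12 lower, against 10.2% and 8.38% of all genes. The counts there were 8 and 11 in ranks 1 to 100 and 26 and 15 in the 200 genes ranked next below. Of the members higher at the tip, 19 were shared by both soil waters, which is 32.8% of the 58 and 61.3% of the 31. Of the lower ones 6 were shared, which is 28.6% of the 21 and 50% of the 12. The sharing among all genes called was not computed, so these shares have no background beside them. Another locus, LOC_Os06g02040 (rank 167, chosen after its values were seen), passed with opposite signs, at -3.11 in well-watered and 1.12 in drought leaves (adjusted p = 0.00492 and 0.0209 by edgeR). It stood at 0, 0, 0.326 and 0.240 CPM in segment 2 and 0, 0.0280, 0 and 0.0412 CPM in segment 6 of W30, and at 0.205, 0.249, 4.56 and 3.82 CPM and 0.972, 0.915, 6.11 and 6.65 CPM in D30. The difference between the soil waters was not tested. The passing members changed by between 0.22 and 5.81 upward and between -0.21 and -3.57 downward (log2) in well-watered leaves, with medians of 0.71 and -0.78.

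LOC_Os04g05010 had the smallest adjusted p along the blade in both soil waters, although other members differed by more. In W30 it stood at 139, 152, 203 and 150.03 CPM in segment 2 and 39.1, 28.7, 27.0 and 29.7 CPM in segment 6, a difference of -2.43 (standard error 0.17, adjusted p = 3.66e-16 by edgeR). In D30 it stood at 27.4, 19.4, 67.6 and 89.1 CPM in segment 2 and 6.17, 7.41, 23.7 and 19.3 CPM in segment 6, a difference of -1.79 (standard error 0.17, adjusted p = 2.28e-11 by edgeR). The base was higher than the tip in all 8 pools. LOC_Os09g14670 was likewise lower at the tip in W30, at 29.8, 27.3, 20.2 and 17.5 CPM in segment 2 and 19.6, 13.4, 12.2 and 12.8 CPM in segment 6, a difference of -0.78 (standard error 0.09, adjusted p = 3.43e-09 by edgeR). LOC_Os03g21040 was lower at the tip in D30, at 16.3, 17.6, 38.0 and 58.2 CPM in segment 2 and 6.22, 7.63, 17.8 and 18.1 CPM in segment 6, a difference of -1.31 (standard error 0.16, adjusted p = 1.11e-08 by edgeR). The base exceeded the tip in every pool of these comparisons.

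In the other direction, LOC_Os01g38510 rose in W30 from 3.68, 10.5, 9.42 and 6.66 CPM in segment 2 to 8.16, 14.9, 24.9 and 28.6 CPM in segment 6, by 1.26 (standard error 0.16, adjusted p = 2.4e-08 by edgeR). LOC_Os08g17680 rose from 3.69, 18.3, 12.3 and 11.6 CPM to 8.26, 21.1, 48.0 and 49.5 CPM, by 1.37 (standard error 0.19, adjusted p = 2.19e-07 by edgeR). Under drought LOC_Os04g41570 rose from 4.37, 2.71, 14.8 and 22.9 CPM to 5.93, 5.70, 63.1 and 69.1 CPM, by 1.37 (standard error 0.20, adjusted p = 1.31e-06 by edgeR). LOC_Os05g13580 rose from 23.0, 34.1, 88.6 and 61.9 CPM to 41.6, 39.5, 132 and 124 CPM, by 0.67 (standard error 0.12, adjusted p = 6.19e-05 by edgeR). Each of these rises was seen in all 4 pools, and each was larger in batch 2. In well-watered leaves the values were 0.85 in batch 1 and 1.54 in batch 2 for LOC_Os01g38510 and 0.68 in batch 1 and 1.82 in batch 2 for LOC_Os08g17680. Under drought they were 0.60 in batch 1 and 2.03 in batch 2 for LOC_Os04g41570 and 0.37 in batch 1 and 0.97 in batch 2 for LOC_Os05g13580, and neither passed in batch 1 alone.

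Of the 12 listed members 5 were higher at the tip of well-watered leaves, 1 was lower, and 0 passed in drought leaves in edgeR (1 had an unadjusted p under 0.05). The 5 were 3 of the 4 ER unfolded protein response loci, 1 HSP90 and 1 HSP70 locus. Whether the HSP90 and HSP70 loci also belong to the ER was not checked. LOC_Os02g02410 of the HSP70 list stood at 34.5, 126, 76.0 and 63.6 CPM in segment 2 and 60.7, 115, 154 and 194 CPM in segment 6 of W30, a difference of 0.79 (standard error 0.16, adjusted p = 9.79e-05 by edgeR). Replicate 2 was higher at the base and the other 3 higher at the tip, and the difference was 0.36 in batch 1 and 1.11 in batch 2. LOC_Os07g14270, LOC_Os04g32950 and LOC_Os09g27830 of the ER list differed by 0.70, 0.47 and 0.44 (edgeR adjusted p = 1.6e-05, 0.00125 and 0.0497), and LOC_Os06g50300 of the HSP90 list by 0.71 (adjusted p = 0.00488). In batch 1 alone LOC_Os06g50300 and LOC_Os09g27830 turned to -0.10 and -0.08, and LOC_Os09g27830 passed in only 3 of the 16 fits that left out 1 pool. The call of LOC_Os06g50300 was lost without W30 replicate 3 or 4, the latter with 0.31 (adjusted p = 0.269), and that of LOC_Os04g32950 without W30 replicate 1 (adjusted p = 0.0533). The lower one, LOC_Os03g14180 of the small heat shock protein list, rests on 1 library: segment 2 of W30 held 0, 4.16, 0.0408 and 0 CPM and segment 6 held 0, 0, 0.173 and 0.0206 CPM. Its fitted difference, which with so many zeros depends on the prior count, was -3.57 (adjusted p = 0.00256) and turned to 1.93 (adjusted p = 0.361) without W30 replicate 2. Among the 5 members with the highest CPM, LOC_Os03g50870 was higher at the tip of well-watered leaves by 0.32 (adjusted p = 0.0144) and LOC_Os10g28360 at the tip of drought leaves by 0.35 (adjusted p = 0.00440). The first call was lost without W30 replicate 1, where the value was 0.18 (adjusted p = 0.281), and without W30 replicate 4, and it did not pass in batch 1 alone (adjusted p = 0.0735). The difference of LOC_Os10g28360 was 0.06 in batch 1 and 0.66 in batch 2, and the call was lost without D30 replicate 4, where the value was 0.20 (adjusted p = 0.206).

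Within batch 1 alone 30 members were higher at the tip of well-watered leaves and 22 lower, with 24.9% of all genes called in either direction, and batch 2 alone gave 90 called members with 28.3% of all genes. Under drought the batches alone gave 36 and 58 called members, with 16.2% and 18.7% of all genes. Without D30 replicate 4 the drought counts were 11 higher and 12 lower, with 11.4% of all genes called, and without D30 replicate 3 they were 22 and 6, with 12.97%.

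Heat values of the members were also taken in each segment, although the rule used the sums of these segments. The members' median heat value, as a description with no test, was 2.46, 2.42, 2.61, 2.42 and 2.46 (log2) from segment 2 to segment 6 of well-watered leaves and 1.99, 2.07, 2.12, 2.10 and 2.05 under drought. The value was above 0 in all 5 segments in 200 members of well-watered leaves and in 199 under drought, which the rule largely fixed. Per segment, 5421 to 6123 of the 15082 genes over the minimum lay above 0 in well-watered leaves, and 5059 to 5697 under drought. A member's segments differed by a median range of 0.39 in well-watered leaves and 0.34 under drought. The difference between tip and base was tested. In well-watered leaves 7 members (3.5%) had a larger heat response at the tip and 11 (5.5%) a smaller one, against 1.37% and 2.15% of all genes tested. Under drought 4 (2%) had a larger and 0 a smaller one, against 0.0837% and 0.105%. The members were chosen for a large heat response and the other genes were not, so these backgrounds are not like for like. Ranks 1 to 100 had 0 and 6 such members in well-watered leaves and 3 and 1 under drought, and the 200 genes ranked next below had 10 and 20, and 5 and 0.

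LOC_Os04g05010, described above for its gradient at 30 °C, had a larger heat response at the tip in both soil waters. In W40 it stood at 289, 660.5, 618 and 727 CPM in segment 2 and 92.6, 509, 559 and 495 CPM in segment 6, and in D40 at 78.1, 164, 739.9 and 843 CPM and 59.1, 161, 547 and 640.2 CPM. The gradient seen at 30 °C was thus shallower at 40 °C, and the tip's heat response exceeded the base's by 1.62 (standard error 0.23, adjusted p = 9.7e-06 by edgeR) in well-watered leaves and by 1.53 (standard error 0.24, adjusted p = 0.000364 by edgeR) under drought. The values were 0.46 in batch 1 and 2.34 in batch 2 for well-watered leaves and 1.64 in batch 1 and 1.35 in batch 2 under drought. The tip lay below the base in all 8 heated pools.

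**Figure D5:**
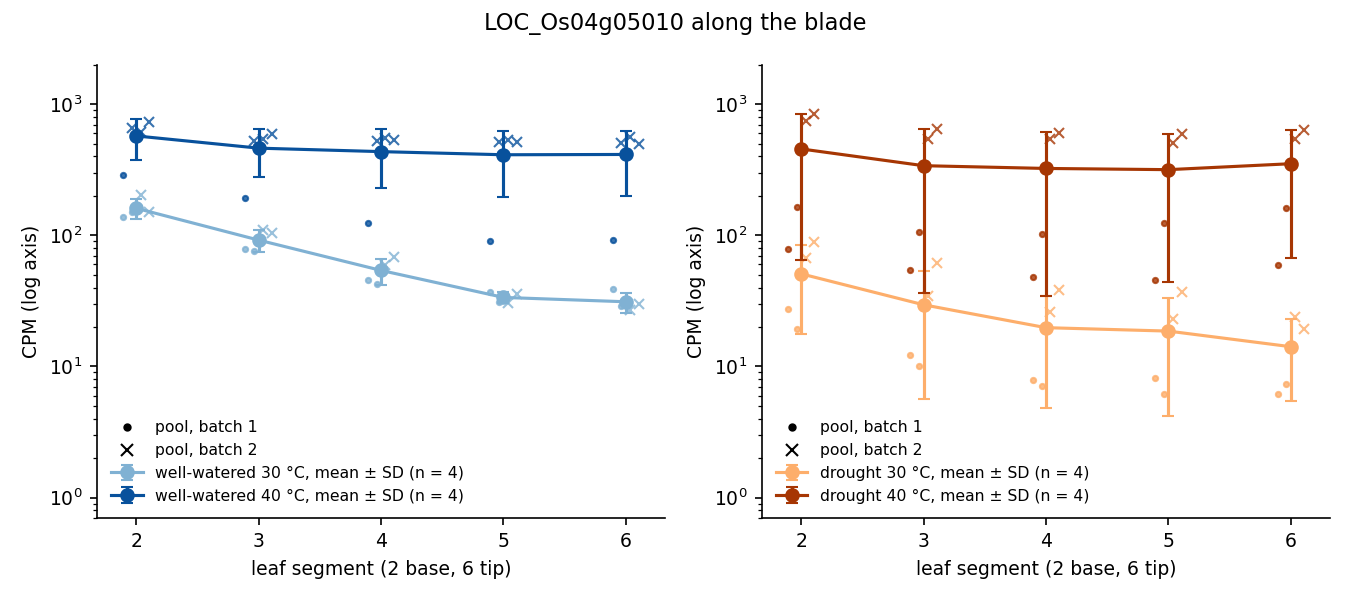
CPM of LOC_Os04g05010 (log axis) from leaf segment 2 at the base to segment 6 at the tip, in well-watered (left) and drought (right) leaves at 30 °C and 40 °C, as mean ± SD of 4 pools with the single pools beside it. In W30 the mean goes from 161 CPM in segment 2 to 31.1 CPM in segment 6, and in W40 from 573 to 414 CPM.

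LOC_Os04g41570, higher at the tip in both soil waters at 30 °C, had a larger response there in well-watered leaves. It stood at 7.26, 7.89, 5.73 and 5.13 CPM in segment 2 and 14.3, 11.1, 12.1 and 13.4 CPM in segment 6 of W30, and at 12.1, 25.2, 17.4 and 21.5 CPM and 49.5, 166, 79.2 and 196 CPM in W40. The difference of the responses was 1.54 (standard error 0.27, adjusted p = 0.000286 by edgeR). LOC_Os10g35460 responded less at the tip, standing at 5.18, 23.3, 2.60 and 2.60 CPM and 3.06, 17.5, 10.2 and 22.7 CPM in segments 2 and 6 of W30 and at 132, 141, 179 and 169.5 CPM and 153, 36.1, 58.8 and 54.3 CPM in W40. Its difference of -2.63 (standard error 0.53, adjusted p = 0.00142 by edgeR) was 0.78 in batch 1 and -4.30 in batch 2, so the sign depended on the batch. LOC_Os03g04770 also responded less at the tip, a difference of -0.95 (standard error 0.19, adjusted p = 0.00146 by edgeR), or -0.20 in batch 1 and -1.48 in batch 2.

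Of the listed members, LOC_Os07g44950 of the ER unfolded protein response list responded more at the tip under drought. It stood at 11.4, 9.60, 15.5 and 18.1 CPM in segment 2 and 11.1, 8.18, 12.0 and 15 CPM in segment 6 of D30, and at 21.3, 27.0, 137 and 129 CPM and 31.7, 44.4, 168 and 134 CPM in D40. The base was higher than the tip in all 4 D30 pools and lower in all 4 D40 pools, and the difference of the responses was 0.69 (standard error 0.13, adjusted p = 0.00391 by edgeR). Its value was 0.87 in batch 1 and 0.44 in batch 2, only batch 1 passed alone, and the call was lost without D30 replicate 2 or D40 replicate 2 (adjusted p up to 0.0528). LOC_Os07g14270 of the same list responded less at the tip in well-watered leaves, a difference of -0.61 (standard error 0.18, adjusted p = 0.0371 by edgeR), but passed in only 2 of the 16 fits that left out 1 pool. LOC_Os03g14180 passed with 3.67 (adjusted p = 0.0258), which turned to -1.82 (adjusted p = 0.643) without W30 replicate 2, the pool noted above, and it was lost without W40 replicate 2, 3 or 4.

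For the heat response along the blade, batch 1 alone called 8 members in well-watered leaves and 41 under drought, with 1.43% and 2.93% of all genes called, and batch 2 alone called 46 and 2, with 6.06% and 0.334% of all genes. Without W40 replicate 1 the well-watered counts were 16 larger and 19 smaller, with 9.34% of all genes called. They were 5 and 3 without W40 replicate 4 and 6 and 4 without W40 replicate 2, with 1.37% and 1.75% of all genes called. Under drought leaving out D40 replicate 4 gave 10 larger and 0 smaller, with 0.589% of all genes called, and leaving out D30 replicate 2 gave 1 and 0, with 0.0911%. Leaving out D30 replicate 1, D40 replicate 1 or D40 replicate 2 gave 2 and 0, with 0.0870%, 0.0745% and 0.0745% of all genes called.

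By their IDs the members lay on all 12 chromosomes, from 8 each on chromosomes 10 and 12 to 33 on chromosome 3. Only 2 pairs of members had adjacent IDs in the count table, LOC_Os02g12350 with LOC_Os02g12360 and LOC_Os07g42370 with LOC_Os07g42380. Another 3 members lay next to a gene of ranks 1 to 100: LOC_Os02g52140 (rank 177) beside LOC_Os02g52150 (rank 3), LOC_Os02g54130 (rank 109) beside LOC_Os02g54140 (rank 18) and LOC_Os06g39260 (rank 292) beside LOC_Os06g39240 (rank 24). The strand setting of the counting was not given in the sources used here, so reads that run from a strongly induced neighbour into these loci could not be told apart, and loci of the HSP70 and small heat shock protein families may share reads with near-identical copies. The length implied by the authors' FPKM had a median of 3098 bases over the members and 3554 bases over the genes above the minimum.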

How the data were processed

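RNA was measured in 80 libraries. The authors deposited a table of raw counts, a table of estimated counts after their batch correction and a table of FPKM after that correction, per the file headers. The submitters' processing notes list HISAT2 2.2.1, Picard 3.1.0 and featureCounts 2.0.6. The build was not given in the sources used here. Batch-corrected, estimated counts were rounded to whole numbers for an alternative, and the FPKM served only for gene length. Raw counts between 1 and 20 were even in 76.9% of cases, so a count may not stand for an independent fragment. Libraries held 53398019 to 128636996 counts, and pools of a treatment differed by more than sampling noise (lowest chi-square per degree of freedom 36.5).

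The tests used edgeR 4.0.16 under R 4.3.3, with TMM, quasi-likelihood F tests, Benjamini-Hochberg adjustment over all genes tested and a threshold of 0.05. Genes were kept by filterByExpr (minimum count 10, minimum total 15), which all 200 members passed. Whole-leaf comparisons fitted treatment and batch to the sums of the 16 pools, with batch as 1 shift shared by all treatments. How far that shared shift moved the drought differences at 40 °C and the interaction was not tested. Blade comparisons fitted leaf pool as a block and segment by treatment to the 80 libraries. Segments of a treatment that share a replicate number come from the same leaves, per the labels' protocols. They deviated together (median correlation 0.857, against -0.673 between pools). Deviations from a mean over 4 pools are pushed below 0 between pools, and batch was not removed. The 2 values therefore do not separate shared leaves from batch. Standard errors are the absolute log2 difference over the square root of F, and CPM use plain totals. DESeq2 1.42.0, RLE scaling, no filter, single batches, batch-corrected counts, other blocks, a slope over segments and left-out pools were alternatives. The members and the 157 listed loci were chosen with earlier results of these data known. Named loci are the listed members, the 5 with the highest CPM at 40 °C, those at the edges of the ranks and, per comparison, those with the smallest adjusted p in each direction, for which the rule allowed 3 and the text prints up to 2 because the IDs carry no annotation. The adjacent loci were chosen by position, and LOC_Os04g05010 is also described where other comparisons named it. The tests were also run on simulated data with known changes but no batch or leaf pool effects, and those results are not given here. Nothing says whether pools came from separate sowings, so p-values measure only the spread between these pools.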

Additional observations from a re-analysis of the deposited data

Results flagged for a closer look

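In 7 of 124 sets of 4 pools, 1 pool stood far from the other 3 by Dixon's 95% criterion, which flags about 1 in 20 sets by chance. In 4 of the 7 it was W40 replicate 1, the heated well-watered pool of batch 1. LOC_Os03g50870 stood there at 454 CPM against 1582 to 1699 CPM in the other W40 pools, LOC_Os04g05010 at 155 CPM against 547 to 573 CPM, LOC_Os03g04770 at 168 CPM against 477 to 529 CPM and LOC_Os02g55134 at 10.6 CPM against 17.4 to 18 CPM. In W30, replicate 1 stood apart for LOC_Os01g38510, at 5.57 CPM against 14.2 to 15.5 CPM, and for LOC_Os08g17680, at 5.97 CPM against 23.3 to 25.2 CPM. W30 replicate 2 stood apart for the small heat shock protein locus LOC_Os03g14180, at 0.893 CPM against 0.00430 to 0.0519 CPM.

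The heat response differed between the tip and the base by a test of the difference itself (log2, tip minus base, edgeR) for 6 named loci of well-watered leaves. The values were 1.62 for LOC_Os04g05010, 1.54 for LOC_Os04g41570, 3.67 for LOC_Os03g14180, -0.61 for LOC_Os07g14270, -0.95 for LOC_Os03g04770 and -2.63 for LOC_Os10g35460. Under drought they were 1.53 for LOC_Os04g05010 and 0.69 for LOC_Os07g44950. Of these, LOC_Os03g14180 turned to -1.82 without W30 replicate 2, LOC_Os10g35460 was 0.78 in batch 1 alone, and LOC_Os07g14270 passed in 2 of the 16 fits that left out 1 pool.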

How the results depend on the processing

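Under the other scaling (RLE) and without an expression filter, the number of members called stayed within 1.5 times in all 7 comparisons. Over all alternatives, the values of named loci kept their direction and side of the threshold in 668 cases, lost the call in 108 and changed sign in 7. Fits that left out 1 pool, which share most of their data, made up 472, 54 and 2 of these. In batch 1 alone, where W40 had 1 pool, more calls were lost than kept. Batch 2 alone gave 30, 1 and 2. The block on replicate number kept 3 and lost 6, and fits without the leaf pool block kept 3 and lost 21. Each of the other 5 alternatives kept 24 to 32 and lost 0 to 4. Of the 200 members, 125 stayed in the range when genes were ranked by the mean of the 4 heat values, and 147 to 199 stayed under the other 6 rules tried. A ranking without W40 replicate 1 could not be made, since batch 1 then has no W40 pool.

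The counts of members called that moved by more than 1.5 times are given next, and where no value shows it, the cause was not tested. For drought at 30 °C (22 called) they were 36 with DESeq2 (16.9% of all genes called), 114 in batch 2 alone (33.2%) and 58 with the authors' batch-corrected counts (14.5%). For drought at 40 °C (16 called) they were 32 with DESeq2 (22.3%), 130 in batch 2 alone (48.1%) and 47 with batch-corrected counts (14.1%). The count in batch 1 alone moved as well and rests on 1 W40 pool. For the interaction (0 called) they were 3 with DESeq2 (1.88%), 2 in batch 1 alone (0.486%), 47 in batch 2 alone (16.8%) and 3 with batch-corrected counts (0.676%). Along well-watered unheated leaves (79 called) batch 1 alone gave 52 (24.9%). For the heat response along the blade, well-watered leaves (18 called) gave 8 in batch 1 alone (1.43%), 46 in batch 2 alone (6.06%), 8 with batch-corrected counts (2.18%) and 32 with a slope over the segments (5.83%). Drought leaves (4 called) gave 11 with DESeq2 (0.649%), 41 in batch 1 alone (2.93%), 2 in batch 2 alone (0.334%) and 18 with the slope (0.603%). Fits to single batches use fewer pools, and the lone W40 pool of batch 1 was assumed to vary like the other groups.

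A block on replicate number in place of batch gave 5 calls for drought at 30 °C (4.24% of all genes), 6 for drought at 40 °C, all lower (6.88%), and 0 for the interaction (16 at an unadjusted p under 0.05). Same-numbered pools correlated at 0.34 to 0.70 except the pairs of replicate 2 with W40, at -0.59 to -0.44, and at -0.31 to 0.17 once batch means were removed, so across treatments the numbers follow the batch. Without the leaf pool as replicate block, the blade comparisons gave 15 calls in well-watered and 2 in drought leaves (9.34% and 2.74% of all genes). The heat response along either blade gave 0 calls (15 and 4 members at an unadjusted p under 0.05). For these alternative fits the share of all genes at an unadjusted p was not computed.

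With 1 pool left out, the calls ranged from 7 to 27 for drought at 30 °C, from 3 to 29 for drought at 40 °C and from 0 to 2 for the interaction. They ranged from 56 to 81 along well-watered and from 23 to 46 along drought leaves, and for the heat response along the blade from 8 to 35 in well-watered and from 1 to 10 in drought leaves. These blade fits kept the dispersion trend of the full fit. Between 171 and 200 members stayed in the range.

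Signs changed in these cases. In batch 1 alone the tip difference of well-watered leaves became -0.097 for LOC_Os06g50300 and -0.084 for LOC_Os09g27830, and the heat difference along the blade became 0.78 for LOC_Os10g35460. For LOC_Os03g14180 the tip difference became 1.96 (adjusted p = 0.0494, edgeR) in batch 2 alone and ranged from -6.75 to 1.93 with 1 pool left out, and the heat difference along the blade became -1.67 in batch 2 alone and ranged from -1.82 to 6.86.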
